A study of Bos taurus with 11 samples.

Results

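CTCF binding was compared between rumen epithelial primary cells cultured with butyrate and the same kind of cells without it. The data were the called CTCF intervals of 1 control and 1 butyrate library, chosen by the sample name carried by each row of the interval table. These were 63426 of 371758 intervals in the series, 29406 from control and 34020 after butyrate. The cells came from 1 Holstein bull calf, 2 weeks old, which had received only milk replacer. The butyrate culture had 5 mM butyrate in the medium for 24 h, and the control culture had none. The series holds 11 samples, which are a control and a butyrate library for each of 5 targets (CTCF, H3K27ac, H3K4me3, H3K4me1 and H3K27me3) and 1 input shared by both conditions. Each condition had 1 library from 1 culture, with no replicate. No difference below could be set against replicate error, and an effect of butyrate cannot be told apart from other differences between the libraries. Intervals in brackets after a percentage are exact 95% binomial (Clopper-Pearson) intervals and cover the counting of sites only.

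CTCF is a zinc finger protein that binds a long, conserved DNA motif. It stops the movement of cohesin along DNA, so that its sites anchor chromatin loops and mark the borders of topological domains, and at imprinted loci it acts as an insulator between enhancers and promoters. Butyrate, which microbes in the rumen release by fermentation, is a main fuel of the rumen lining and inhibits histone deacetylases. H3K27ac marks active promoters and enhancers, H3K4me3 marks promoters, H3K4me1 marks enhancers, and H3K27me3 is left by Polycomb complexes at repressed genes. Genes that carry H3K4me3 and H3K27me3 together are typically silent regulators of development.

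The label of the cells was checked at gene starts of marker genes. Of 8 epithelial genes, 4 had H3K27ac in control, among them KRT5, ITGB4 and SFN, whereas KRT14, TP63, CDH1 and EPCAM had none. Among 10 fibroblast and smooth muscle genes, 3 carried it (COL1A1, COL1A2 and ACTA2), as did 0 of 6 endothelial and 2 of 7 immune genes (CD14 and CD68). Of all 23994 gene starts, 47.1% had H3K27ac in control and 34.7% after butyrate. The epithelial list was thus close to the share of all genes in control and the other lists below it, and the part of other cells in the results below was not tested. After butyrate, H3K27ac lay at 4 epithelial, 2 fibroblast and smooth muscle, 1 endothelial and 1 immune gene of these lists. CTCF itself lay at the starts of 3 epithelial marker genes in control and 2 after butyrate. Of the fibroblast and smooth muscle genes, 3 and 5 were bound. No endothelial start had a CTCF interval, and 1 immune start had one in control only.

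The first comparison asked how many sites were found in both conditions. Overlapping intervals of the libraries, by at least 1 bp, were joined into 36657 sites. Of these, 24726 (67.5%) held both libraries, 8958 were found after butyrate only (24.4%) and 2973 in control only (8.11%). Of the control intervals, 89.9% (89.5 to 90.2) met a butyrate interval, and 73.7% (73.2 to 74.1) of the butyrate intervals met one of control.

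The strongest sites were found in both libraries and the weakest often in one. Peak signal is the height of an interval at its summit, in the tag density units of the deposited table, and its quartiles were the same in both libraries, with 34, 51 and 88. All 5773 control intervals with a peak signal above 100 and all but 1 of the 4377 between 71 and 100 were found again after butyrate. At a peak signal of 30 or less, this share was 66.4% (65.1 to 67.8). Butyrate intervals were less often met at the same height. The share was 31.5% (30.4 to 32.7) at 30 or less, 53.2% (51.9 to 54.4) at 31 to 40 and 90.8% (89.96 to 91.5) at 51 to 70, and 14 of 6647 intervals above 100 had no control interval.

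**Figure D1:**
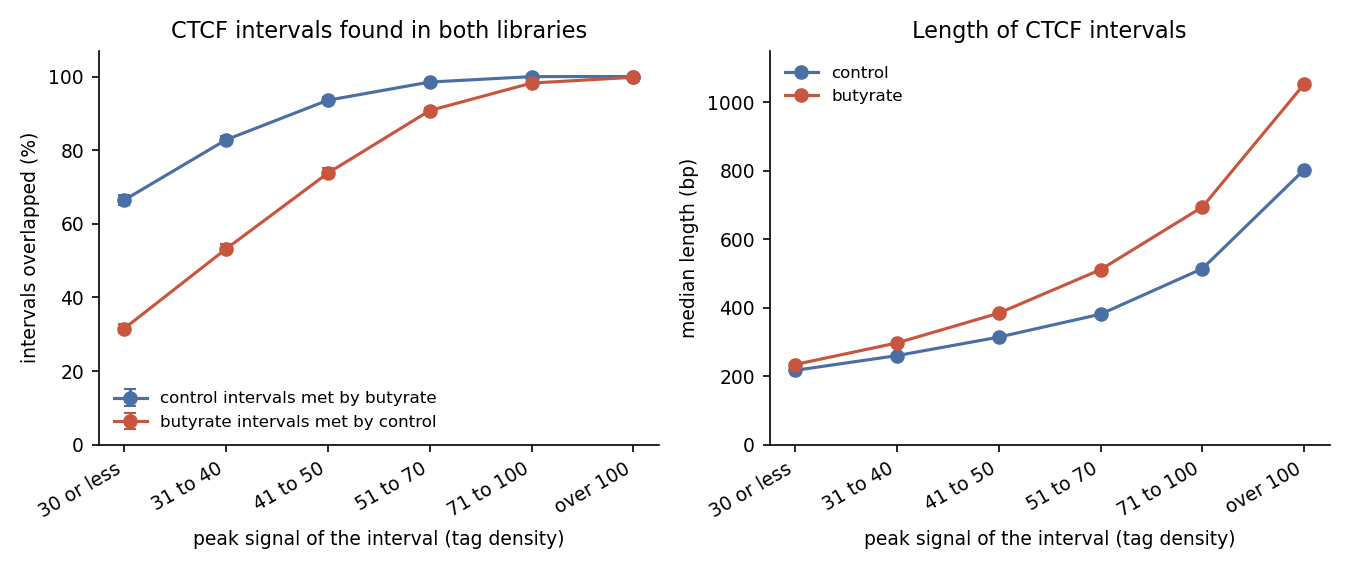
Left, the share of CTCF intervals of each library (%) that overlapped an interval of the other, by bands of peak signal (tag density), with exact 95% intervals. Right, the median interval length (bp) in the same bands. The share for control intervals starts at 66.4% in the weakest band and that for butyrate intervals at 31.5%, and butyrate intervals were longer in each of the 6 bands.

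CTCF intervals were wider after butyrate while their summits stayed in place. The median length was 364 bp in control and 450 bp after butyrate, and the covered genome was 14.2 Mb and 20.3 Mb. For sites with 1 interval in each library (22923), the medians were 383 and 541 bp, and 17799 of them (77.6%) were longer after butyrate. At least 2-fold longer were 3060 of these sites, against 119 that were at least 2-fold shorter. The summits of the 2 libraries lay 32 bp apart in the median, which is 1 step of the signal track, and 95.3% lay within 100 bp of each other. Only 352 pairs (1.54%) were more than 200 bp apart, with a largest distance of 1664 bp.

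The gain in width was also seen within each band of peak signal, from 217 against 234 bp in the weakest band to 803 against 1053 bp in the strongest. At 1477 sites several control intervals fell into a single butyrate interval, and at 236 sites a single control interval met several butyrate intervals. Of the 5 targets, CTCF was the one whose median interval was longer after butyrate. The medians of the histone marks were 666 and 417 bp for H3K27ac, 440 and 399 bp for H3K4me1, 853.5 and 826 bp for H3K4me3, and 7199 and 6999 bp for H3K27me3, control before butyrate.

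The second comparison asked where the sites of a single library lay and which chromatin they carried. Sites found in control only lay at gene starts, within 2 kb of a start, in 32.1% (30.4 to 33.8) of cases, against 18.4% (17.9 to 18.9) of shared sites and 19.9% (19.1 to 20.8) of sites found after butyrate only. Between genes lay 29.9% of the control-only, 41.5% of the shared and 43.7% of the butyrate-only sites. The share with a CpG island ranged only from 22.3% of shared to 26.4% of control-only sites.

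The histone marks separated the classes further. H3K27ac was present in control at 49.1% (47.3 to 51) of control-only sites, 20.1% (19.6 to 20.6) of shared sites and 13.4% (12.7 to 14.1) of butyrate-only sites. H3K27me3 had the opposite order, with 9.52% (8.49 to 10.6), 23.0% (22.5 to 23.5) and 29.4% (28.5 to 30.3). Of the 3 classes, control-only sites thus carried the active mark most often and butyrate-only sites the Polycomb mark. H3K4me1 lay at 24.0% of control-only, 12.5% of shared and 10.1% of butyrate-only sites, and H3K4me3 at 38.4%, 22.3% and 20.2%.

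**Figure D2:**
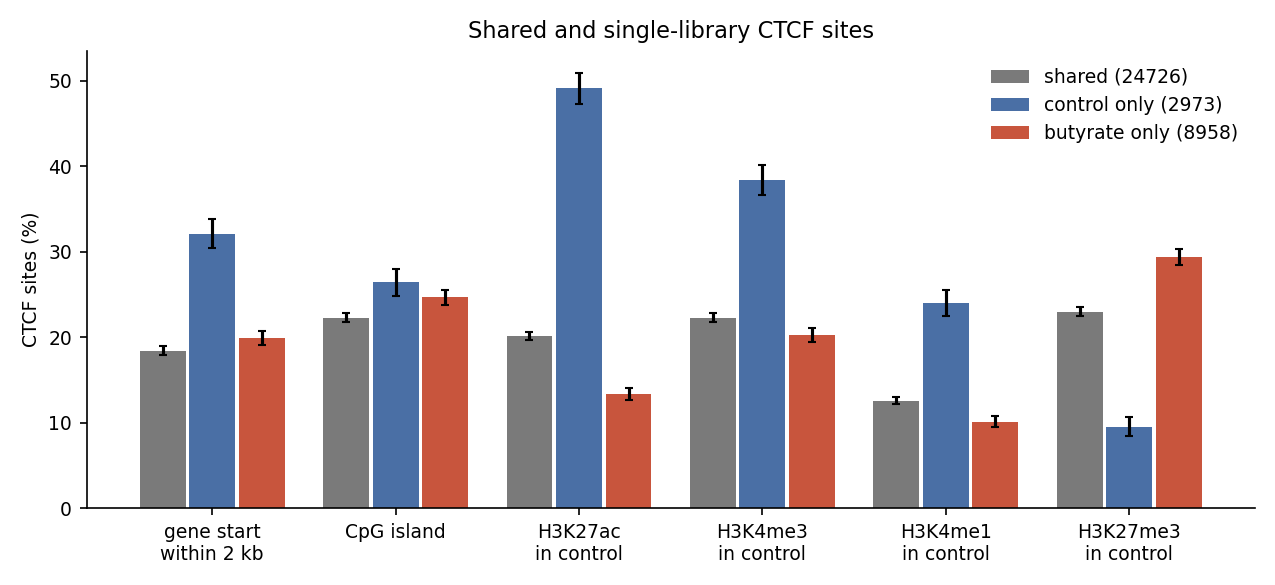
Share of CTCF sites (%) at a gene start, with a CpG island, and with each histone mark in control, for sites found in both libraries (24726), in control only (2973) and after butyrate only (8958); bars give shares and lines their exact 95% intervals. H3K27ac stands at 49.1% of control-only sites and 13.4% of butyrate-only sites, and H3K27me3 at 9.52% and 29.4%.

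Single-library sites were weak, with a median peak signal of 29 in control only and 31 after butyrate only, against 60 and 67 at shared sites. The classes were therefore compared again among sites whose larger peak signal was 40 or less. H3K27ac in control then lay at 48.0% (46.1 to 49.96) of 2658 control-only sites, 26.0% (24.7 to 27.5) of 3848 shared sites and 14.7% (13.9 to 15.6) of 7240 butyrate-only sites. The shares with H3K27me3 were 9.86%, 13.6% and 27.2%, the same order of the classes as over all sites.

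Many of the marks at these sites were themselves called in a single library. Where control had H3K27ac, none was called after butyrate at 55.1% (52.5 to 57.7) of control-only CTCF sites, 50.5% (49.1 to 51.9) of shared sites and 35.6% (32.9 to 38.4) of butyrate-only sites. For H3K4me1 the shares were 58.2%, 47.8% and 42.8%, and for H3K27me3 41%, 32% and 22.6%. H3K4me3 stayed at almost all of them, with at most 3.33% called in control only. Of sites without H3K4me3 in control, 6.27% (5.72 to 6.86) of the butyrate-only and 4.53% (4.24 to 4.83) of the shared sites had it after butyrate.

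The third comparison asked how the signal differed at the 24726 shared sites. Peak signal was slightly higher after butyrate, with medians of 60 and 67. As log2 of butyrate over control, the median site had 0.10, with quartiles of -0.14 and 0.37, and 84.2% of the sites were within 1.5-fold. Over the sites with 1 interval in each library, the log2 signals of the conditions had a Pearson's r of 0.87 and a Spearman's rho of 0.86, as a description across sites. A 2-fold or larger difference was found at 688 sites with higher (2.78%) and 45 with lower signal (0.182%). By average signal over the interval, which falls as an interval gets longer, the counts were 69 (0.279%) and 14 (0.0566%). How the libraries were scaled to each other is not given in the sources used here, and centred on the median site the counts were 432 and 86.

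**Figure D3:**
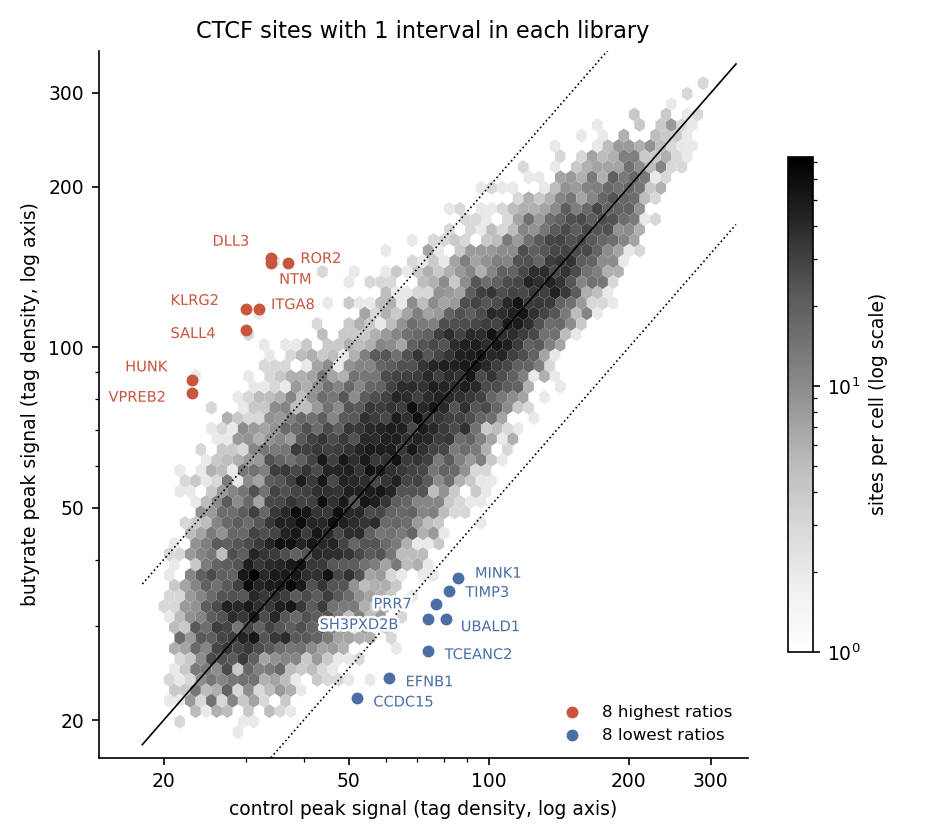
Butyrate against control peak signal (tag density, log axes) for the 22923 sites with 1 interval in each library; grey shade gives the number of sites per cell. The solid line marks equal signal and the dotted lines 2-fold differences, and points mark the 8 named sites of highest ratio, from VPREB2 at 1.83 to DLL3 at 2.11, and the 8 of lowest ratio, from TCEANC2 at -1.45 to MINK1 at -1.22.

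A 2-fold higher CTCF signal was more frequent at sites in Polycomb chromatin. At 3865 shared sites with H3K27me3 in both libraries the median peak signal was 72 in control and 94 after butyrate. Their median log2 ratio was 0.30, and 293 sites (7.58%; 6.77 to 8.46) were at least 2-fold higher, while 0 were lower to that degree. By average signal the median of these sites was 0.13 and the share 1.01%. At 18320 sites without H3K27me3 in either library the medians were 57 and 61, and the median log2 ratio was 0.04, which was -0.02 by average signal and -0.06 when centred on the median site. There 305 sites (1.66%; 1.48 to 1.86) were at least 2-fold higher, and all 45 lower sites of the comparison were in this group.

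Of the combinations of H3K27me3 and CpG island, both together had the highest ratios. At the 1051 sites with both features the median peak signal was 70 in control and 110 after butyrate, the median log2 ratio was 0.49, and 174 sites (16.6%; 14.4 to 18.9) were at least 2-fold higher. By average signal the median was 0.27 and the share 3.04%. Of these sites, 946 (90.01%) had a higher signal after butyrate. H3K27me3 without an island gave a median log2 ratio of 0.24, and an island without H3K27me3 gave 0.09. The place in the gene made little difference, since 17% of such island sites at gene starts, 16.0% in gene bodies and 16.6% between genes were at least 2-fold higher.

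The gap between the groups was also seen at matched mean signal. Among sites with a mean peak signal above 50 and up to 70, the median log2 ratio was 0.47 with H3K27me3 in both libraries and 0.09 without, and 15.8% (13.2 to 18.7) and 3.20% (2.67 to 3.81) were at least 2-fold higher. Above 100 the medians were 0.21 and -0.01.

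The Polycomb sites were also grouped by H3K4me3. Where H3K27me3 was called in both libraries and H3K4me3 after butyrate only, the median log2 ratio of CTCF was 0.52 over 374 sites, and 20.6% (16.6 to 25) were at least 2-fold higher. Where both marks were called in both libraries it was 0.43 over 629 sites, and without H3K4me3 0.25 over 2850. These groups were not split by CpG island, so H3K4me3 and the island cannot be told apart here. The change of H3K4me3 signal and of CTCF signal at the same sites had a Spearman's rho of 0.27 over 4526 sites, and that of H3K4me1 and CTCF 0.20 over 647. The value was -0.03 for H3K27me3 over 3095 sites and 0.02 for H3K27ac over 1303. These are descriptions across sites of the same cultures, and sites are not replicates.

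Ratios were lower where H3K27ac was called in either library. At 2514 sites with H3K27ac in control only, the median log2 ratio was -0.04, and it was -0.14 at the 1111 of these with no CpG island, where 362 (32.6%) were higher after butyrate. At 2464 sites with H3K27ac in both libraries it was 0.04, at 375 with it after butyrate only -0.01, and at 19373 sites with none 0.13. Centring on the median site lowers each of these values by 0.10.

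**Figure D4:**
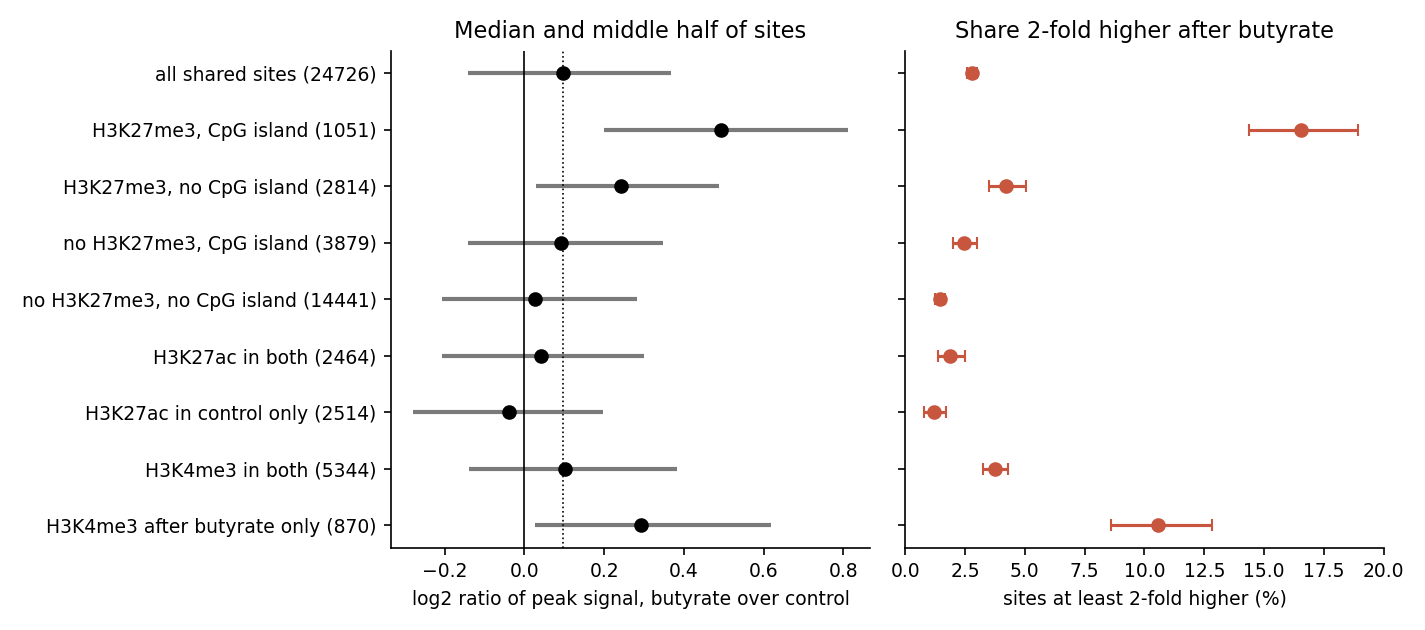
Left, the median (point) and the range from the lower to the upper quartile (line) of the log2 ratio of CTCF peak signal, butyrate over control, at shared sites grouped by histone mark and CpG island, with the number of sites in brackets; H3K27me3 means in both libraries, the solid line marks 0 and the dotted line the median of all shared sites. Right, the share of each group (%) at least 2-fold higher, with exact 95% intervals; sites with H3K27me3 and a CpG island reach 0.49 and 16.6%, and sites with neither 0.03 and 1.45%.

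The 688 sites with at least 2-fold higher signal were chosen by their ratio, which favors low signal in control and high signal after butyrate. Their median peak signal was 36 in control and 83 after butyrate, and their median length 288.5 and 709.5 bp. In control 50.6% (46.8 to 54.4) of them carried H3K27me3 and 11.0% carried H3K27ac, and 44.6% had a CpG island. H3K4me3 lay at 29.7% of them in control and 42.4% after butyrate. The 45 lower sites, chosen by ratio in the other direction, had median peak signals of 62 and 29. Of these, 0 carried H3K27me3, which allows a share of up to 7.87% by the upper limit of its interval, and 55.6% (39.997 to 70.4) had H3K27ac in control against 24.4% after butyrate.

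The sites with the highest ratios lay in H3K27me3, most of them at CpG islands. Named sites were those with 1 interval in each library whose larger signal reached the library median, and whose nearest listed gene had an established symbol. DLL3, a member of the Notch ligand family, had a site inside the gene on chromosome 18 (UMD3.1 build, 49446364 to 49447135) with a peak signal of 34 in control and 147 after butyrate, a log2 ratio of 2.11 (1.25 by average signal). A site inside NTM, a neural cell adhesion gene, had 34 and 144 (chromosome 29, 35842297 to 35843395). The site at the start of ROR2, a receptor for Wnt ligands, had 37 and 144 (chromosome 8, 87339560 to 87341333). These sites lay near the lower quartile of 34 in control and above the upper quartile of 88 after butyrate, values that naming by ratio favors.

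The other named sites showed the same pattern at lower heights. Peak signal was 30 and 118 at the start of KLRG2 (chromosome 4, 103813755 to 103815001) and 32 and 118 at the start of ITGA8, an integrin subunit (chromosome 13, 30527416 to 30528590). It was 23 and 87 at the start of HUNK, a protein kinase (chromosome 1, 2917352 to 2917957), and 30 and 108 inside SALL4, a zinc finger factor of embryonic stem cells (chromosome 13, 80310631 to 80311486). A site downstream of VPREB2, 2824 bp past its start, had 23 and 82 (chromosome 17, 72811009 to 72811689). All 8 sites lay in H3K27me3 in both libraries, 7 had a CpG island and 0 had H3K27ac. By average signal, 6 of the 8 were at least 2-fold higher, and their summits were at most 176 bp apart.

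Some genes were the nearest listed gene of several sites with at least 2-fold higher signal. Over all shared sites 688 of 24726 (2.78%) reached this. How many shared sites lie nearest to each gene is not given here, so the counts are not read as a trait of the genes. VPREB2 was the nearest gene of 4 sites at least 2-fold higher, with log2 ratios from 1.15 to 1.83. SHANK2, a scaffold protein of synapses, and SORCS3, a sorting receptor of neurons, had 3 each. Each of 22 further genes had 2, among them the cadherin CDH6, DPP6, a subunit of neuronal potassium channels, and RBFOX3, a neuronal splicing factor, which were picked with their values known.

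The sites with the lowest ratios lay outside Polycomb chromatin. A site 747 bp inside TCEANC2 had a peak signal of 74 in control and 27 after butyrate, a log2 ratio of -1.45 (-1.01 by average signal; chromosome 3, 92744950 to 92745343). The site downstream of UBALD1, 9397 bp past its start, had 81 and 31 (chromosome 25, 3739591 to 3740031). One 6214 bp upstream of EFNB1, the ligand ephrin B1, had 61 and 24 (chromosome X, 86962241 to 86962527). These sites lay above the median of 51 in control and below the lower quartile of 34 after butyrate, which naming by ratio favors.

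The remaining 5 were inside or downstream of genes. Peak signal was 74 and 31 in SH3PXD2B, an adaptor of podosomes, 82 and 35 at TIMP3, an inhibitor of metalloproteinases, and 86 and 37 in the kinase gene MINK1. It was 52 and 22 in CCDC15 and 77 and 33 downstream of PRR7. Of the 8 sites, 0 had H3K27me3 or a CpG island, 5 had H3K27ac in control and 4 after butyrate. By average signal 4 of the 8 were at least 2-fold lower, and the summits were at most 32 bp apart.

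Single-library sites with no interval of the other library within 1 kb were named by height. In control only, the highest lay inside UQCC, an assembly factor of respiratory complex III, with a peak signal of 76, in VWA8 with 69, downstream of the chemokine receptor gene CCR7, 15046 bp past its start, with 68 and downstream of CSRNP1, 21350 bp past its start, with 67. Peaks of 65 lay downstream of N4BP1, 68753 bp past its start, and 178 bp upstream of the start of BUB3, a spindle checkpoint gene. H3K27ac overlapped 4 of these 6 sites in control and 1 after butyrate. The highest control-only peak, with 76, was thus below the upper quartile of the library, 88.

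Higher peaks were found after butyrate only. They lay in ASAP1, a regulator of ARF GTPases, with 139, in CRHR1, the receptor of corticotropin-releasing hormone, with 133, and downstream of FRMPD2, 116007 bp past its start, with 128. Peaks of 116, 105 and 100 lay in the riboflavin transporter gene SLC52A3, the neuronal adaptor gene APBA2 and the homeobox gene IRX4. H3K27me3 was present in both libraries at 5 of the 6, all but FRMPD2, and H3K27ac at 0. H3K4me3 was called after butyrate only at 3 of them (CRHR1, FRMPD2 and IRX4). These sites exceeded the upper quartile of 88, and with no value given for control no ratio could be taken.

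The strongest CTCF sites differed little. The site 1612 bp inside GDF15, a stress-induced cytokine gene, had 295 in control and 305 after butyrate, and the site downstream of CHST8, 150210 bp past its start, had 287 and 313. Those near CALML4 had 291 and 305, and those near RIN1, a Ras effector gene, 290 and 281. The peak in CCDC40, a gene of motile cilia, was 318 and 250, a log2 ratio of -0.35 that was -0.05 by average signal. The 5 sites were all within 1.5-fold.

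The fourth comparison asked what was bound at gene starts. A start was counted as bound where an interval reached 2 kb on either side of it, and the strongest interval of each library was taken. These intervals can belong to different sites, so a ratio at a start need not be that of a single site. Of 23994 gene starts, 5899 (24.6%) were bound in control and 6401 (26.7%) after butyrate. In both libraries 5154 were bound, 745 in control only (10.4% of starts bound in either) and 1247 after butyrate only (17.5%). Of the 5154 starts, 204 had at least 2-fold higher signal (3.96%) and 33 at least 2-fold lower signal (0.64%), and the median log2 ratio was 0.09. Counted by summits instead of intervals, 5660 and 6079 starts were bound.

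The state of the promoter in control separated the starts. Among 3384 genes with H3K4me3 and H3K27me3, CTCF was at 1001 starts in control and 1315 after butyrate, of which 73 belonged to control alone and 387 to butyrate alone. Their median log2 ratio was 0.28, and 8.51% (6.80 to 10.5) were at least 2-fold higher. Among 10181 genes with H3K4me3 alone the numbers bound were 3934 and 3846, 640 and 552 of them in a single library, and the median log2 ratio was 0.03. These genes held 29 of the 33 lower starts. Genes with H3K27me3 alone (4513) had 402 and 581 bound starts, 6 and 185 of them in a single library, and a median of 0.27. The 5916 genes with neither mark had 562 and 659, 26 and 123 of them in a single library, a median of 0.07 and 4.48% (2.89 to 6.59) at least 2-fold higher.

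Most of the higher sites at gene starts had a CpG island, and most had H3K27me3. Of the 141 sites at gene starts that were at least 2-fold higher and had an established symbol, 85 had H3K27me3 in control, 114 a CpG island and 45 H3K27ac. An island was common over all 4556 shared sites at gene starts as well. There 2524 had one with no H3K27me3 in either library, and 335 one with H3K27me3 in both. H3K27ac lay in control within 2 kb of 47.1% of all gene starts, bound or not. That measure is wider than the overlap with the CTCF site counted for the 141. The homeobox genes TLX3 and NKX2-5 had peak signals of 32 and 113, and of 25 and 81. The dopamine receptor gene DRD1 had 49 and 160, and the growth factor gene FGF19 30 and 78. Starts without H3K27me3 were also among them, such as APP, the amyloid precursor protein gene, with 50 and 134, and MEAF6, a subunit of histone acetyltransferase complexes, with 35 and 94. The genes of this paragraph were picked with their values known.

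The 15 sites at gene starts with at least 2-fold lower signal had no H3K27me3, which most shared sites at gene starts lacked too. Of all 4556, 2524 with a CpG island and 1045 without one had it in neither library. The ribosomal protein genes RPL23 and RPS9 had peak signals of 57 and 26, and of 51 and 24, and NHP2, a component of small nucleolar RNPs, had 53 and 26. DCAF15, a substrate receptor of a ubiquitin ligase, had 98 and 43, and ERH 66 and 31. Of the 15 sites, 11 had H3K27ac in control against 4 after butyrate. Over all gene starts, bound or not, the shares were 47.1% and 34.7%. Those shares count H3K27ac within 2 kb of a start and not at a CTCF site, so the measures differ. These genes, too, were picked with their values known.

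The genes of CTCF and cohesin were bound at 12 of 22 starts in control and 9 after butyrate. The start of CTCF itself had 29 in control and 47 after butyrate, and that of STAG1, a cohesin subunit, 181 and 220. ZNF143, a zinc finger factor found with CTCF at promoters, had 77 and 55, and the cohesin loader gene MAU2 61 and 48. The acetyltransferase gene ESCO1, with 32, and the cohesin gene SMC1A, with 31, were bound in control only. The median log2 ratio of the 9 starts bound in both was 0.21 against 0.09 over all genes, and it was -0.08 by average signal. None differed 2-fold in peak signal.

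Imprinted genes, where CTCF acts as an insulator, were bound at 7 of 33 starts in control and 12 after butyrate. None was bound in control only, against 10.4% of starts bound in either library over all genes. Over so few bound starts this absence gives no direction. PHLDA2, an imprinted regulator of placental growth, had 55 and 111, a log2 ratio of 1.01 (0.33 by average signal). IGF2, a growth factor gene, had 103 and 146, and H19, a long noncoding RNA gene, 143 and 176. PEG10 and SGCE, which start beside each other, shared a butyrate-only site of 50. Over the 7 starts bound in both libraries the median was 0.30 on the log2 scale, against 0.09 over all genes. It was 0.45 by summits and 0.20 when scaled on the 10% strongest starts. Of the 7 starts, 1 was at least 2-fold higher.

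Around IGF2 and H19 most shared sites had a higher signal after butyrate. Between 20 kb before IGF2 and 20 kb after H19 (chromosome 29, 50017926 to 50170775) there were 12 sites, 7 of them shared, 4 found after butyrate only and 1 in control only. The shared site 2839 bp upstream of H19 had 143 and 176, and another 279 bp upstream had 40 and 53. Upstream of INS, the insulin gene, they were 45 and 88, upstream of TH 61 and 98, and between IGF2 and H19 60 and 96. The highest site of the locus in control, 6234 bp past the start of IGF2, had 207 and 197. The signal was higher after butyrate at 6 of the 7 shared sites, with a median log2 ratio of 0.50. All 12 sites lay in H3K27me3 in both libraries. Over all 3865 shared sites with this mark in both libraries, 80.6% were higher, with a median of 0.30. Of the 12 sites, 33.3% were found after butyrate only, against 24.4% of all sites. Whether the locus differs from other sites with this mark was not tested.

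The HOX genes pattern the body axis and are separated by CTCF sites into active and silent domains. They were bound at 9 of 36 starts in control and 12 after butyrate. None was bound in control only, against 10.4% of starts bound in either library over all genes. As for the imprinted genes, the bound starts are too few for this absence to give a direction. A site 168 bp past the start of HOXB6 also lay within 2 kb of the start of HOXB8. It served both starts with 25 and 60, a log2 ratio of 1.26 (0.99 by average signal). HOXB9 had 36 and 67 and HOXC10 42 and 71. HOXC9, with 37, and HOXA13, with 36, were bound after butyrate only. The median log2 ratio of the 9 starts was 0.72, against 0.09 over all genes. It was 0.29 by average signal and 0.39 with a window of 5 kb. At least 2-fold higher were 2 starts, those of HOXB6 and HOXB8, which share the site past the start of HOXB6.

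The clusters differed from each other. In HOXB (chromosome 19, 38483070 to 38614902, with 20 kb on either side) 6 sites were shared and 6 were found after butyrate only. The shared peaks, in order along the chromosome, had 36, 109, 25, 44, 88 and 55 in control and 67, 153, 60, 105, 146 and 108 after butyrate. Each was higher after butyrate, and the median log2 ratio was 0.93. In HOXA, a site past the start of HOXA5 had 48 and 119, the highest site, near HOXA7, had 199 and 232, and a site past HOXA13 had 72 and 44. The median log2 ratios were 0.31 over 6 shared sites in HOXA and 0.21 over 7 in HOXD.

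HOXC stood apart from the other clusters in both signal and mark. The median over its 8 shared sites was -0.01 on the log2 scale, with 4 higher and 4 lower, among them 128 and 113 at HOXC5 and 122 and 137 near HOXC8. H3K27me3 was called at 6 of its 12 CTCF sites in control and 2 after butyrate, whereas all 30 sites of HOXA, HOXB and HOXD had it in control. In those 3 clusters 17 of 19 shared sites were higher after butyrate, with a median of 0.53, and 11 sites were found after butyrate only. Over the 4 clusters, 14 of 42 sites (33.3%) were found after butyrate only, against 24.4% of all sites. Of the 42, 36 had H3K27me3 in control. Of all sites with H3K27me3 in control, 2633 were found after butyrate only, 5686 were shared and 283 were found in control only. The share in the HOX clusters was thus close to that of sites with this mark.

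**Figure D5:**
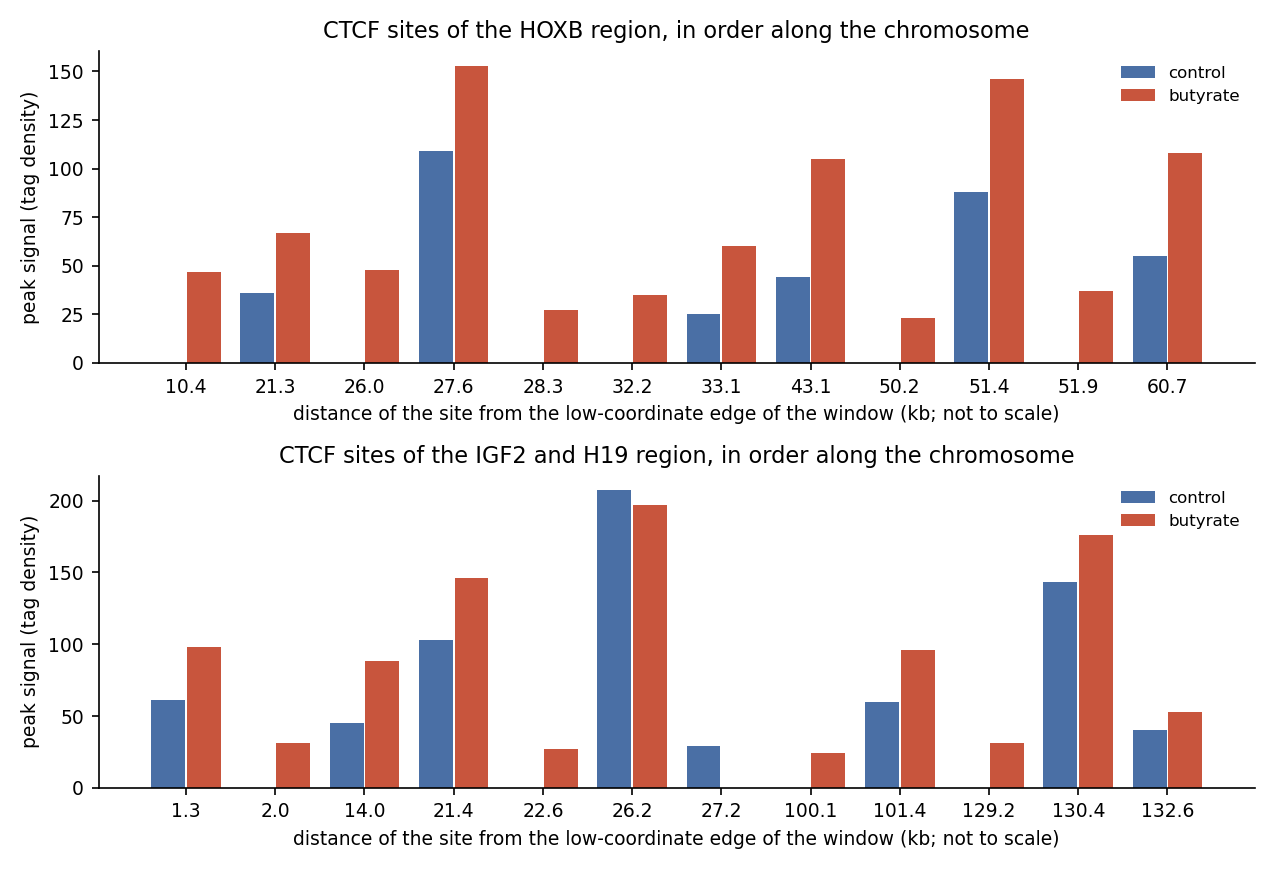
Peak signal (tag density) of each CTCF site in control and after butyrate, in order along the chromosome, for the HOXB region (12 sites, top) and the IGF2 and H19 region (12 sites, bottom); a missing bar means that no interval was called, and labels give the distance from the low-coordinate edge of the window (kb). The 6 shared sites of HOXB and 6 of the 7 shared sites of the lower region were higher after butyrate.

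Clustered protocadherins give neurons their surface identity through CTCF sites at alternative promoters. Of 14 listed starts 2 were bound in control and 4 after butyrate. PCDHGA2 had 24 and 37 and PCDHGB4 58 and 60, while PCDHGA1, with 56, and PCDHA3, with 35, were bound after butyrate only. Over the whole locus (chromosome 7, 53570215 to 54268918) 11 sites were shared, 10 (45.5%) were found after butyrate only and 1 in control only. Of all sites, 24.4% were found after butyrate only. At 19 of the 22 sites of the locus H3K27me3 was called in control. Over all sites with that mark in control, 2633 were butyrate-only, 5686 shared and 283 control-only. Whether the share is particular to this locus was not tested. The highest butyrate-only peak, with 74, lay 30843 bp past the start of PCDHA13. At its shared sites the median was 0.15 on the log2 scale, with 7 higher and 4 lower, among them 57 and 42 downstream of PCDHGA8.

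Neuronal and synaptic genes were bound at 8 of 44 starts in control and 12 after butyrate. GRIN2B, a glutamate receptor subunit, had 27 and 74, a log2 ratio of 1.45 (0.95 by average signal). NRXN2, a presynaptic adhesion protein, had 117 and 231, ELAVL3, a neuronal RNA-binding protein, 52 and 100, and ARC, a regulator of synapses, 33 and 53. SHANK2, with 47, was bound after butyrate only, and the synaptic scaffold gene DLG4, with 32, in control only. H3K27me3 lay in control at 5 of these 6 starts, all but DLG4. On the log2 scale the median of the list was 0.68, and 1 of the 7 starts bound in both was at least 2-fold higher. It was 0.25 by average signal, and with windows of 1 and 5 kb it was 0.38 and 0.17. Over all genes the median was 0.09, and 3.96% were at least 2-fold higher. Among genes with H3K27me3 in control the median was 0.28 with H3K4me3 and 0.27 without. Whether the list differs from other genes with H3K27me3 was not tested.

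The lists of cell division genes had negative median ratios, over few starts. Mitosis genes were bound at 4 of 23 starts in control and 2 after butyrate, and DNA replication genes at 9 of 21 and 7. No start of either list was bound after butyrate only, against 17.5% of starts bound in either library over all genes. With so few bound starts, this absence gives no direction. CDC20, an activator of the anaphase-promoting complex, had 77 and 43 (log2 ratio -0.84), and the kinase gene PLK1 33 and 30. FEN1, a flap endonuclease, had 60 and 31 (-0.95), CDC45, a helicase cofactor, 38 and 26, and the clamp loader gene RFC5 50 and 36, while CDT1, a licensing factor, had 24 and 29. Of the 7 replication starts bound in both, 2 were higher after butyrate, CDT1 and the polymerase subunit gene POLA2 with 31 and 37, the latter named outside the rule. BUB3 with 65, the spindle motor gene KIF11 with 24, RFC2 with 43 and the helicase gene MCM7 with 40 were bound in control only. The median log2 ratios were -0.49 over 2 starts and -0.27 over 7, and 0 starts were at least 2-fold lower.

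Housekeeping genes were bound at 13 of 29 starts in each library. GAPDH had 56 and 35, and RPLP0, a ribosomal protein gene, 183 and 121, a log2 ratio of -0.60 that was -0.06 by average signal. TBP, the TATA-binding protein gene, had 42 and 30, and VPS29, a retromer subunit, 44 and 29. PGK1, with 30, was bound in control only and CHMP2A, with 32, after butyrate only. On the log2 scale the median was -0.14, which was 0.05 with a window of 5 kb.

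Immediate early genes were the most often bound of these lists, at 14 of 20 starts in control and 13 after butyrate. They spread in both directions. KLF2, a zinc finger factor, had 34 and 73 (log2 ratio 1.10, 0.53 by average signal) and EGR2 44 and 80, whereas FOSL2, an AP-1 subunit, had 59 and 31 and ATF3 42 and 24. FOSB, with 34, was bound in control only. The median was 0.02 and -0.04 by average signal, so no direction could be given for the list.

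Genes of stratified epithelium were bound at 11 of 43 starts in control and 13 after butyrate. CLDN1, a tight junction protein, had 104 and 151, KRT8, a keratin of simple epithelium, 61 and 88, and ESRP2, an epithelial splicing regulator, 50 and 69. SFN, which encodes 14-3-3 sigma, had 54 and 38. The desmosomal genes PKP3, with 43, and DSC3, with 36, were bound after butyrate only. The share bound in control, 25.6%, was close to the 24.6% of all genes. Over 10 starts the median was 0.32 on the log2 scale, but 0.03 by average signal and 0.12 with a window of 5 kb. Of these 6 were higher, and none differed 2-fold.

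Genes that take up and use short-chain fatty acids were bound at 8 of 28 starts in control and 11 after butyrate. BDH1, a ketone body dehydrogenase, had 33 and 49, and ACAT2, an acetyl-CoA acetyltransferase, 30 and 36, whereas BDH2, another such dehydrogenase, had 88 and 71. HADH, a dehydrogenase of fatty acid oxidation, with 37, was bound in control only. EMB, with 45, and BSG, with 33, which encode partners of monocarboxylate transporters, were bound after butyrate only. The median was -0.07, or 0.04 with a window of 5 kb.

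The histone deacetylase genes, whose products butyrate inhibits, were bound at 3 of 11 starts in control and 2 after butyrate. HDAC3 had 99 and 128 and HDAC10 109 and 118, and HDAC5, with 29, was bound in control only. The median of 0.24 over 2 starts was -0.01 by average signal.

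Genes that the study listed with higher or lower mRNA after butyrate were used by name only. These lists came from the same kind of cells and are not independent evidence of a direction. Of 798 genes with higher mRNA, 209 starts were bound in control and 266 after butyrate, 11 and 68 of them in a single library. Their median log2 ratio was 0.27 over 198 starts (0.15 by average signal), and 16 were at least 2-fold higher (8.08%, against 3.96% of all genes). Of 284 genes with lower mRNA, 100 and 96 were bound, 22 and 18 of them in a single library, with a median of -0.11 over 78 starts (-0.06 by average signal) and 2 at least 2-fold higher.

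The pattern was spread over all chromosomes. Each of the 30 had more CTCF intervals after butyrate and, with the signal as deposited, a median log2 ratio above 0 at its shared sites, from 0.05 to 0.17. Sites were densest on chromosome 19, with 29.7 per Mb, and sparsest on chromosome X, with 5.38 per Mb. Chromosome X had the highest share of butyrate-only sites, 30.1%, and chromosome 19 the lowest, 20.4%. The X of this male calf is present once, and its median peak signal was 41.5 in control and 38 after butyrate, against 52 in both libraries on the autosomes. H3K27me3 lay at 6.37% of CTCF sites on X in control and at 30.1% of those on chromosome 19.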

How the data were processed

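The authors deposited a table of intervals of all ChIP-seq libraries, with the start, end, summit, peak and average signal (tag density) and nearby genes of each, and counts of the CpG islands and genes it meets, with each library called apart. Per the submitters' processing notes, Trim Galore 0.4.1, BWA and MACS2 were used on the UMD3.1 build. How the signal was scaled between libraries, and whether coordinates count from 0 or 1, are not given in the sources used here. Tag totals listed by the study were not used here, so no depth is set beside the values. Peak signal was the main measure because average signal depends on interval length. Signal is given for called intervals only, so ratios were taken at shared sites, with the strongest interval of each library and no pseudocount. Gene starts (23994) were derived from summits and their signed distances. Members, lists and the naming rule were chosen with earlier results of these data known. Named were the 8 highest and 8 lowest ratios, the 6 highest peaks of each single-library class, the 5 highest mean peaks and, per gene list, up to 4 by ratio and 2 by peak in each direction, and genes outside the rule are said to be so. A few genes named by the rule are not reported here. The scripts were tested on simulated data. Python 3.11.15, numpy 2.4.6, pandas 2.3.3, scipy 1.17.1 and matplotlib 3.10.9 were used. No motif was searched and no sequence is shown, since no genome of this build was used here.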

Additional observations from a re-analysis of the deposited data

How the results depend on the processing

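No paired analysis was possible because each condition has 1 library, and no library could be left out. The motif alternatives were not run. Leaving out intervals below the lower quartile of peak signal left 1938 control-only and 5631 butyrate-only sites, with 91.4% of control and 78.0% of butyrate intervals shared. Requiring an overlap of 50% of the shorter interval gave 88.9% and 73.0%, equal numbers of intervals 85.8% and 80.7% with 5668 butyrate-only sites, and summits within 100 bp 80.3% and 69.4% with 5792 control-only sites. The counts of 2-fold higher and lower sites, 688 and 45, were 69 and 14 by average signal, 3179 and 725 at 1.5-fold, 37 and 0 at 3-fold, and 432 and 86 when centred on the median site. The median log2 ratio of 0.10 was 0.014 by average signal, 0.037 when scaled on the 10% strongest sites, 0 when centred and 0.11 at sites at or above the library median. At sites without H3K27me3 the median of 0.04 turned to -0.018 by average signal, -0.019 when scaled and -0.056 when centred. Sites with H3K27me3 in both libraries exceeded them by 0.26 as reported and by 0.14 to 0.27 under the alternatives run. Gene starts held 13.8%, 25.4% and 15.1% of shared, control-only and butyrate-only sites within 1 kb, and 28.6%, 41.7% and 28.7% within 5 kb. With a histone interval within 1 kb of the summit, H3K27ac lay at 22.7%, 55.9% and 16.7%, and H3K27me3 at 26.3%, 12.0% and 31.7%. The median over all gene starts, 0.09, was -0.010 when scaled on the 10% strongest starts. With a window of 1 kb, histone deacetylase genes had 1 start bound in both libraries. Its log2 ratio of 1.93 can pair different sites, since the strongest interval of each library inside the window was taken. It is therefore not read as a change of a site. The restriction to sites with 1 interval of each library, and for gene lists the average signal, the summit rule, centring and scaling, were chosen after seeing the data. The cause of these shifts was not tested.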
